A study of Rattus norvegicus with 6 samples.

Results

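The genes described here are the G1 cyclins, the kinases they activate, the inhibitor Cdkn1b and the transcription factor E2f1, measured in 6 RNA-seq libraries of HEI-OC1 cells. They were chosen by gene symbol: Ccnd1, Ccnd2, Ccnd3, Ccne1, Ccne2, Cdk2, Cdk4, Cdk6, Cdkn1b and E2f1. The count table of 18718 genes held a row for 9 of these 10 symbols, and all 9 passed the filter on low counts. Ccnd2 was not analysed here.

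HEI-OC1 cells are an established line that comes from the organ of Corti, the hearing organ of the inner ear. In 3 libraries (siHnrnpd 1 to 3) the cells had received an siRNA against Hnrnpd, labelled as an AUF1 knockdown, and in 3 libraries (control 1 to 3) a control siRNA, labelled SiNC. Both groups are the same line, grown in DMEM with fetal bovine serum, streptomycin and penicillin. The siRNA dose and the time of harvest were not used here. Nothing in the labels ties the libraries of a group to separate cultures, and every p-value below therefore rests on the spread between libraries, which may be technical. Hnrnpd encodes AUF1, a protein that binds AU-rich elements in mRNA and influences their decay, and the cyclin D1 mRNA is among the targets described for it in earlier literature.

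In G1, mitogens raise the D-type cyclins, which bind and activate Cdk4 and Cdk6. These kinases begin to phosphorylate the retinoblastoma protein, which releases E2F transcription factors, and E2F then drives genes for S phase, among them the E-type cyclins that activate Cdk2. Cdkn1b encodes p27, an inhibitor that holds cyclin E and Cdk2 in check. In the organ of Corti, p27 is known for keeping the sensory epithelium out of the cell cycle. Whether the growth of these cells depends on this pathway was not tested.

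The libraries held 28984535 to 35842904 gene counts. Hnrnpd itself (listed as Hnrpd) stood at 62.8% of the control level in CPM (gene counts scaled to a common library size, with TMM), with a log2 change of -0.67 (SE 0.082, adjusted p = 0.0426 by edgeR's quasi-likelihood test). Leaving out any library other than siHnrnpd 2 took that adjusted p to between 0.0508 and 0.319. The cell type was checked against marker genes. Of 10 hair cell markers 7 had a row, and 6 of these, among them Myo7a, Slc26a5 and Otof, averaged under 1 FPKM (fragments scaled by gene length and library size, as computed by the authors). The exception, Myo6, had 3.45 to 4.48 FPKM over the 6 libraries. Of 6 epithelial markers 5 had a row, and all 5 averaged under 1 FPKM. Of 7 immune markers 6 had a row, and 5 of these averaged under 1 FPKM. All 8 fibroblast markers had a row, and they summed to 696 to 823 FPKM in siHnrnpd and 620 to 707 FPKM in control libraries, ranges that overlap. Nearly all of that sum was Col1a1, Col3a1 and Thy1, while 3 of the 8 (Col1a2, Dcn and Postn) averaged under 1 FPKM. The cells are labelled as rat, whereas this line is usually described as murine. The source species could not be tested from gene tables, which limits comparisons of level between genes.

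The promoters of Cdk4 and Ccne1 are shown because both genes had groups that did not overlap and have an entry in the RefSeq promoter table, which holds 5 of the 10 symbols. Each sequence covers 250 bases up to the annotated gene start in the rat build GRCr8, read 5′ to 3′ on the gene's strand. For Cdk4 (chr7:64771203-64771452, plus strand) the capitals mark CACGTG, the E-box bound by Myc and related factors, which reads the same on both strands. For Ccne1 (chr1:99927910-99928159, minus strand) they mark GGGCGG, the GC box bound by Sp1, searched on both strands.
Cdk4: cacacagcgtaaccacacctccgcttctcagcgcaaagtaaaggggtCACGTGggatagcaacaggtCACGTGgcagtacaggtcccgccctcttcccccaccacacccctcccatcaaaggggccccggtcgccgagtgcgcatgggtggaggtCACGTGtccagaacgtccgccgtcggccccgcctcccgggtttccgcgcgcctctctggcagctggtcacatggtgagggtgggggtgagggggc
Ccne1: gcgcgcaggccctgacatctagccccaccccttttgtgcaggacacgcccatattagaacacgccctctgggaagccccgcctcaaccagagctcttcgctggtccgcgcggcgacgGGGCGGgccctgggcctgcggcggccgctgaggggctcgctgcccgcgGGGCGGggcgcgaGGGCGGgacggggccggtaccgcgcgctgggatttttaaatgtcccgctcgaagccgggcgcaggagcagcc
The Cdk4 window held 3 E-boxes, whose first bases lie 203, 183 and 95 bases before the gene start, and the Ccne1 window 3 GC boxes, at 133, 85 and 72 bases. GC boxes were not particular to Ccne1: the Cdk2 window held 4, that of Ccnd3 2, and those of Cdk4 and Cdkn1b 1 each. An E-box was found in none of the member windows besides Cdk4. Among 33469 promoters of the same length, 5.59% held at least 1 E-box and 0.0508% at least 3, while 30.5% held at least 1 GC box and 7.41% at least 3. The E2F motifs TTTCGCGC, TTTGGCGC, TTTCCCGC and TTTGCCGC, searched on both strands, matched none of the 5 members' windows and 1.73% of all promoters. A match is a run of letters and not a measured binding site. The sequences are those of the rat build, and if the cells are murine, their own promoters may differ.

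Levels between genes were compared per length, by the authors' FPKM. Cdk4, the kinase partner of the D-type cyclins, was by far the most abundant of the 9 genes. It had 374 ± 11.2 FPKM in siHnrnpd and 345 ± 20.0 FPKM in control libraries (SD, n = 3 each). Ccnd3, encoding cyclin D3, came next at 65.5 ± 3.59 FPKM in siHnrnpd and 71.2 ± 8.66 FPKM in control libraries. Cdkn1b, Ccnd1 and Cdk2 followed in the control libraries, at 35.0 ± 3.19, 34.9 ± 2.58 and 33.4 ± 0.989 FPKM. These 3 ranges overlapped from one gene to the next, so their order in the control cells lies within the spread. In the siHnrnpd libraries Ccnd1 had a mean of 44.9 ± 7.68 FPKM, with every library above those of Cdk2, whose mean was 33.6 ± 1.77 FPKM.

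Ccne1, encoding cyclin E1, had 22.1 ± 0.766 FPKM in siHnrnpd and 24.8 ± 0.382 FPKM in control libraries. E2f1 had 23.5 ± 1.94 and 23.1 ± 1.26 FPKM in the same groups, and the ranges of these 2 genes overlapped in both. Lowest were Ccne2, encoding cyclin E2, at 7.26 ± 1.16 FPKM in siHnrnpd and 7.23 ± 1.12 FPKM in control libraries, and Cdk6, the second D-type kinase, at 6.15 ± 0.654 and 5.76 ± 0.497 FPKM. Their ranges overlapped in the siHnrnpd libraries and not in the control libraries. Cdk4 thus made up 98.4 ± 0.133% of the summed FPKM of Cdk4 and Cdk6 in siHnrnpd and 98.4 ± 0.0468% in control libraries. Between the E-type cyclins, Ccne1 held 75.3 ± 3.59% in siHnrnpd and 77.5 ± 2.51% in control libraries, and those groups overlapped.

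**Figure D1:**
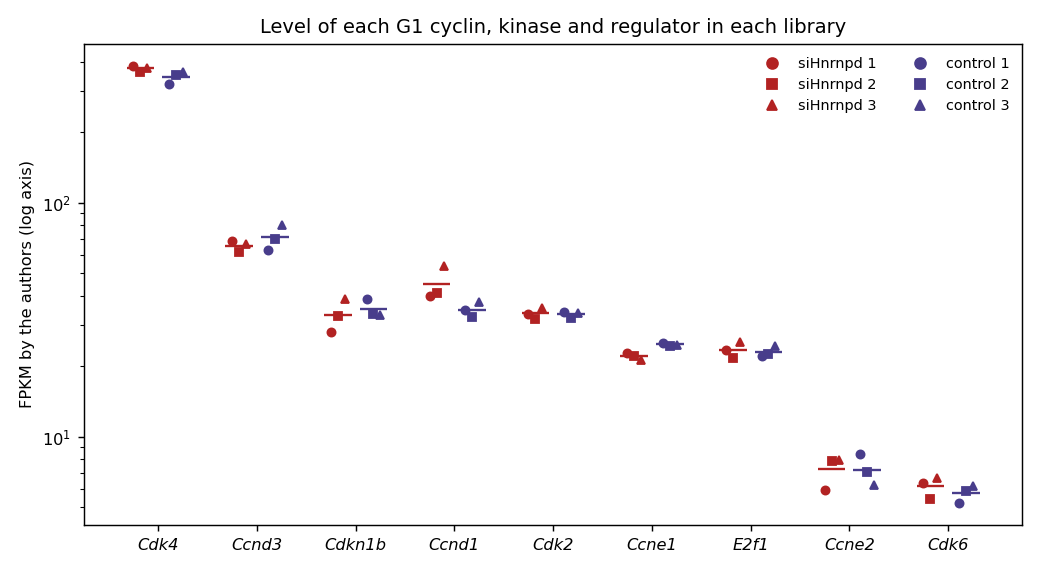
FPKM by the authors on a log axis for the 9 genes, ordered by their control mean; each point is 1 library (circle 1, square 2, triangle 3; siHnrnpd left, control right) and each bar a group mean. Cdk4 lies between 322 and 384 FPKM in all 6 libraries, and Cdk6 and Ccne2 lie below 9 FPKM.

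Set against control, none of the 9 genes passed the test over all 12268 genes tested: edgeR called 0 in either direction, where it called 0.0815% of all genes (0.0245% as higher and 0.0571% as lower), and DESeq2 also called 0, where it called 1.41% of 11453. At an unadjusted p under 0.05 there were 2 of 9, or 22.2%, against 11.0% of all genes. Of these 2, 1 was higher and 1 lower, where 5.84% of all genes were higher and 5.20% lower. The groups did not overlap in CPM for 3 of 9, or 33.3%, against 17.0% of all genes. In 2 of the 3 the siHnrnpd libraries were higher and in 1 lower, where 8.42% and 8.57% of all genes were so. With 9 genes, these shares differ from those of all genes by 1 or 2 genes. The median log2 change was -0.0070 over the 9 genes and 0.0054 over all genes tested, with 4 values above 0 and 5 below. The libraries are bulk RNA, in which fewer cells expressing a gene and less of its RNA per cell cannot be told apart.

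Ccnd1, encoding cyclin D1, had the largest difference of the 9. Its CPM was 181, 187 and 238 in siHnrnpd 1, 2 and 3, against 158, 149 and 168 in controls 1, 2 and 3. The groups did not overlap, and siHnrnpd 3 lay far above the other 2 libraries of its group. The counts behind these values ran from 6206 to 7762 in siHnrnpd and from 4595 to 6067 in control libraries. The mean was 127% of control, with a log2 change of 0.35, an SE of 0.10 and a 95% interval of 0.11 to 0.58 for this gene alone, and it did not pass over all genes (edgeR unadjusted p = 0.0081, adjusted p = 0.310). DESeq2 gave an adjusted p of 0.0791. Without siHnrnpd 3 the log2 change was 0.20 (SE 0.072, edgeR unadjusted p = 0.0204, adjusted p = 0.387). In siHnrnpd 3 the supporting and prosensory cell markers with a row (4 of 7, with Prox1 at or near 0) also summed to 29.5 FPKM, against 20.6 and 20.0 FPKM in siHnrnpd 1 and 2 and 19.7 to 22.6 FPKM in the control libraries. Most of that sum was Hes1, at 26.5 FPKM in siHnrnpd 3 against 16.5 to 19.6 FPKM in the other libraries. Jag1 and Hey1 in siHnrnpd 3 lay within the range of the other libraries, so the higher sum came from Hes1. Any part of Hes1 in the Ccnd1 value was not tested.

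Ccnd3, the other D-type cyclin with a row, pointed the other way. Its control libraries were more spread than those of Ccnd1 (SD 17.8 against 9.28 CPM). Its siHnrnpd libraries were less so (SD 7.12 against 31.1 CPM). It had 153, 139 and 145 CPM in siHnrnpd 1 to 3, against 142, 160 and 177 CPM in controls 1 to 3. The groups overlapped, since control 1 lay below siHnrnpd 1 and 3. The log2 change was -0.14 (SE 0.088, edgeR adjusted p = 0.598). It was -0.22 without control 1, with an unadjusted p of 0.0174, and -0.053 without control 3.

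The composition of the measured D-type cyclins was therefore described as well, without a test. Ccnd1 held 36.8%, 40.0% and 44.7% of the summed FPKM of Ccnd1 and Ccnd3 in siHnrnpd 1 to 3, against 35.5%, 31.5% and 31.8% in controls 1 to 3. The lowest siHnrnpd library lay just above the highest control library, and the group means differed by 7.55 percentage points, or by 5.46 without siHnrnpd 3. The sum itself was 110 ± 8.99 FPKM in siHnrnpd and 106 ± 10.4 FPKM in control libraries (SD, n = 3 each), a difference smaller than either SD. Cyclin D2 is not in this sum.

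**Figure D2:**
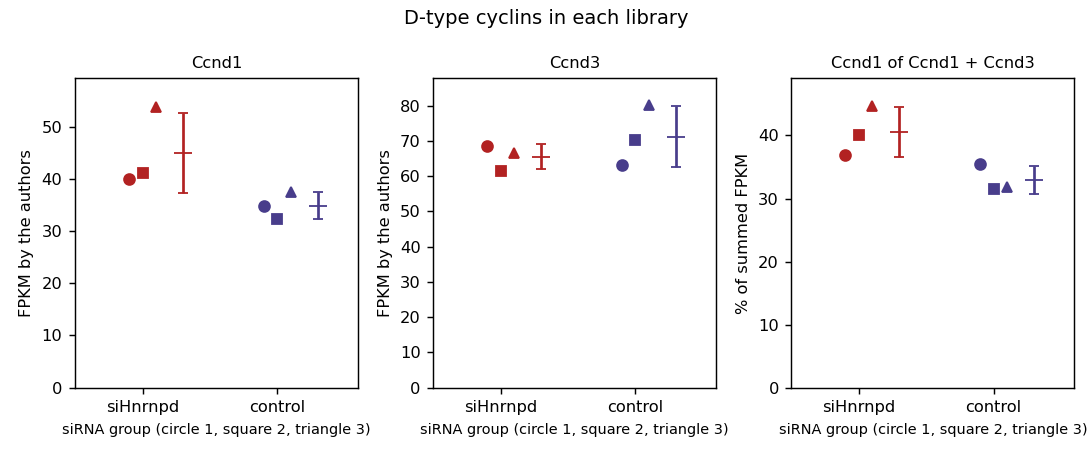
Ccnd1 and Ccnd3 in FPKM and the share of Ccnd1 in their sum, per library (circle 1, square 2, triangle 3), with the group mean and SD beside the points. Ccnd1 reaches 53.8 FPKM in siHnrnpd 3, while the Ccnd3 groups overlap.

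For the D-type kinases the differences were small. Cdk4 had 409, 389 and 392 CPM in siHnrnpd 1 to 3, against 346, 381 and 381 CPM in controls 1 to 3. The groups stood apart, but by a narrow gap, and control 1 lay well below the other control libraries. The log2 change was 0.10 (SE 0.066, edgeR adjusted p = 0.594), and 0.048 without control 1. Myc, whose product binds E-boxes like those shown for Cdk4, had 142 ± 10.7 CPM in siHnrnpd and 143 ± 5.24 CPM in control libraries (SD, n = 3 each). It was named after its values were seen, and its log2 change was -0.011 (edgeR adjusted p = 0.974). Myc protein and its binding were not measured, and any part of Myc in the Cdk4 value was not tested. Cdk6, with 266 to 389 counts per library, had a log2 change of 0.076 and a 95% interval of -0.19 to 0.34 (edgeR adjusted p = 0.849). That interval allows a difference from control of -12.0% to 26.4%, so a small difference was not detectable at this depth and number of libraries. With 1 library left out, the Cdk6 value ran from 0.00076 (without control 1) to 0.15 (without siHnrnpd 2), and it was 0.018 without siHnrnpd 3.

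In the cyclin E and Cdk2 arm, Ccne1 was the gene whose groups stood apart. Its CPM was 52.0, 50.9 and 47.5 in siHnrnpd 1 to 3, against 57.9, 56.9 and 55.9 in controls 1 to 3. The libraries of each group lay close together, and siHnrnpd 3 was the lowest. The mean was 88.1% of control, with a log2 change of -0.18, an SE of 0.066 and a 95% interval of -0.33 to -0.034, which did not pass over all genes (edgeR unadjusted p = 0.0208, adjusted p = 0.362). The unadjusted p was 0.0591 without siHnrnpd 3 and 0.0721 without control 2, with log2 changes of -0.16 and -0.18.

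The second E-type cyclin did not share that pattern of separate groups. Ccne2 had 20.9, 28.1 and 27.5 CPM in siHnrnpd 1 to 3, against 30.0, 25.4 and 21.7 CPM in controls 1 to 3. Both groups covered nearly the same range, giving a log2 change of -0.010 and an SE of 0.14, the largest SE of the 9 genes (edgeR adjusted p = 0.989). Cdk2, the kinase of the E-type cyclins, ran from 82.6 to 88.7 CPM in siHnrnpd and from 84.4 to 88.3 CPM in control libraries. Its log2 change was -0.0070 (SE 0.063, edgeR adjusted p = 0.982), and its 95% interval allows a difference from control of -9.79% to 9.77%.

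Cdkn1b, the inhibitor, varied more within the groups than between them. It had 57.5, 67.6 and 77.5 CPM in siHnrnpd 1 to 3, against 79.9, 69.7 and 67.0 CPM in controls 1 to 3. The highest and the lowest siHnrnpd library spanned most of the control range, for a log2 change of -0.095 and an SE of 0.11 (edgeR adjusted p = 0.797). Without siHnrnpd 3 it was -0.22, and without siHnrnpd 1 it was 0.0087. Per Cdk2 FPKM, Cdkn1b stood at 0.841, 1.02 and 1.09 in siHnrnpd 1 to 3, against 1.13, 1.03 and 0.982 in controls 1 to 3, which overlap.

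E2f1, the transcription factor released by the retinoblastoma protein, had 124, 115 and 131 CPM in siHnrnpd 1 to 3, against 117, 122 and 128 CPM in controls 1 to 3. The groups overlapped, and the log2 change of 0.0089 had an SE of 0.072 (edgeR adjusted p = 0.978). Its 95% interval allows a difference from control of -10.0% to 12.5%, and its sign turned without siHnrnpd 3, where the log2 change was -0.049, and without control 1, where it was -0.031. Across the 9 genes, siHnrnpd 3 held the highest log2 CPM of the 6 libraries for 4 and the lowest for 1.

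**Figure D3:**
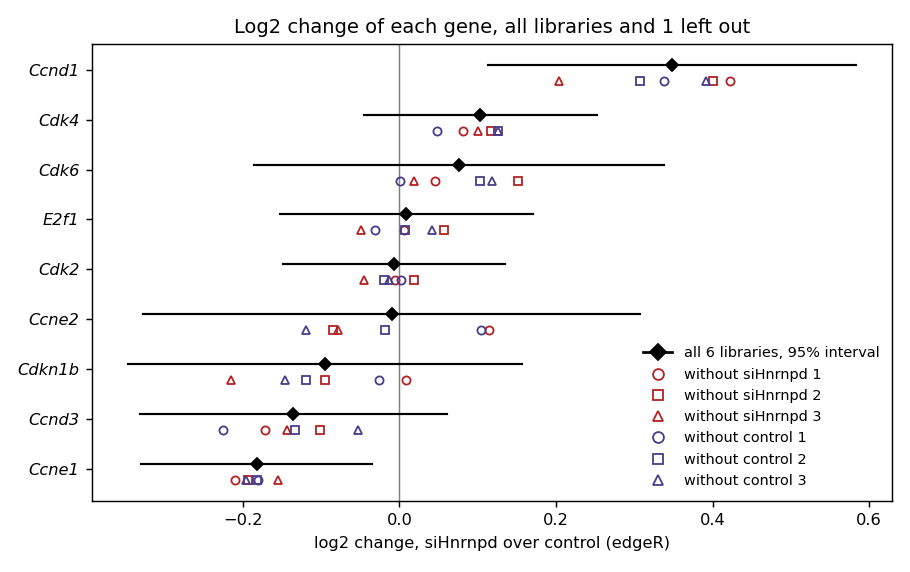
Log2 change, siHnrnpd over control, from edgeR for the 9 genes: diamonds with 95% intervals for all 6 libraries, open symbols with 1 library left out. The Ccnd1 and Ccne1 intervals lie on 1 side of 0, and the Ccnd1 value is lowest, 0.20, without siHnrnpd 3.

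The genes around these members were examined in 7 lists: 121 of 129 listed genes were tested, and edgeR called 0 of them, higher or lower, while 5 were higher and 7 lower by an unadjusted p below that level (0.05). That is 9.92% of the listed genes, against 11.0% of all genes tested. The groups did not overlap for 18.2% of the listed genes, against 17.0% of all genes. The median log2 change was -0.016 over the listed genes.

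Among the other cyclin-dependent kinase inhibitors, 4 of 5 tested had a value above 0. Cdkn2b, an INK4 inhibitor of Cdk4 and Cdk6, had 162 ± 15.0 CPM in siHnrnpd and 184 ± 3.60 CPM in control libraries (SD, n = 3 each), with a log2 change of -0.18 (edgeR adjusted p = 0.433). Cdkn2c, of the same family, had a log2 change of 0.10, and Cdkn2a one of 0.044 (edgeR adjusted p = 0.702 and 0.915). Per length, Cdkn2a stood at 492 ± 27.6 FPKM in siHnrnpd and 472 ± 87.2 FPKM in control libraries, above Cdk4 in every library. These values are for the whole gene, so its separate transcripts, and the level of the INK4 inhibitor among them, cannot be told apart. Cdkn1c, the third Cip/Kip inhibitor, was low, at 0.660 ± 0.236 CPM in siHnrnpd and 0.398 ± 0.0455 CPM in control libraries, and its log2 change of 0.73 did not pass (edgeR adjusted p = 0.461).

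Of 12 pocket proteins and other E2F and DP factors, 6 had a value above 0 and 6 below. E2f6, a repressor of the family, had 107 ± 4.09 CPM in siHnrnpd and 121 ± 2.19 CPM in control libraries, and E2f2, an activator like E2f1, had 10.3 ± 0.471 and 12.5 ± 0.497 CPM (SD, n = 3 each). Neither passed, with log2 changes of -0.18 and -0.27 (edgeR adjusted p = 0.347 and 0.362), although in both genes the groups stood apart. E2f3, another activator, had groups that stood apart in the other direction, at 2.69 ± 0.187 CPM in siHnrnpd and 2.24 ± 0.180 CPM in control libraries (SD, n = 3 each), with a log2 change of 0.26 (edgeR adjusted p = 0.558). E2f4, a repressor that binds pocket proteins, had overlapping groups and a log2 change of 0.17 (edgeR adjusted p = 0.493).

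E2F target genes were mostly just below 0: 28 of 39 tested, or 71.8%, had a negative log2 change, against 48.3% of all genes, with a median of -0.025 against 0.0054. The size was small and the libraries overlapped. The list's mean log2 CPM, relative to the control mean, was -0.063, -0.066 and -0.010 in siHnrnpd 1 to 3, against 0.033, 0.0047 and -0.037 in controls 1 to 3. Slbp, the histone stem-loop binding protein, had 102 ± 7.30 CPM in siHnrnpd and 127 ± 7.87 CPM in control libraries (SD, n = 3 each), with a log2 change of -0.31 (edgeR adjusted p = 0.209). Pole, the catalytic subunit of DNA polymerase epsilon, had a log2 change of -0.16, the mitotic checkpoint kinase Bub1 one of -0.29 and the transcription factor Mybl2 one of 0.17 (edgeR adjusted p = 0.432, 0.455 and 0.432). The proliferation marker Mki67, named for its use as a cell cycle marker, had 186 ± 17.4 CPM in siHnrnpd and 187 ± 7.50 CPM in control libraries. Pcna, another such marker in this list, was named after its values were seen. It had 488 ± 29.9 CPM in siHnrnpd and 544 ± 48.1 CPM in control libraries, and the groups overlapped. Its log2 change was -0.16 (edgeR adjusted p = 0.519).

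Genes for the turnover of cyclins and inhibitors had a median log2 change of -0.019, with 6 of 14 tested above 0. Usp2, a deubiquitinase known to stabilise cyclin D1, had 5.50 ± 0.319 CPM in siHnrnpd and 4.10 ± 0.219 CPM in control libraries (SD, n = 3 each). Cul1, the scaffold of the SCF ubiquitin ligases, had 90.1 ± 9.41 and 109 ± 4.93 CPM in the same groups. In both genes the groups stood apart, in opposite directions, with log2 changes of 0.42 and -0.28, and neither passed (edgeR adjusted p = 0.295 and 0.322). The SCF adaptor Skp1 and Ambra1, a receptor that targets D-type cyclins for degradation, had log2 changes of -0.21 and 0.13 (edgeR adjusted p = 0.478 and 0.522).

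For upstream transcription factors, 9 of 16 tested had a value above 0 and the median was 0.045. The AP-1 genes Junb and Fosl1, which answer to mitogens, had log2 changes of 0.32 and 0.23 (edgeR adjusted p = 0.360 and 0.384). The Fosl1 groups stood apart, while those of Junb overlapped, with control 3 (87.4 CPM) above siHnrnpd 2 (84.2 CPM). The Wnt pathway factor Tcf7l2 and the Myc partner Max had -0.28 and -0.13 (edgeR adjusted p = 0.453 and 0.510), and the groups of both stood apart. The list on CDK activation holds inhibitory kinases beside activators, so its signs do not read as more or less activation. Of its 9 genes 3 were above 0 and 6 below, where 48.3% of all genes were below 0, and the median was -0.088. The inhibitory kinase gene Wee1 had a log2 change of -0.28 and its relative Pkmyt1 one of 0.23, while Cdc37, a chaperone cofactor for Cdk4, had 0.14 and the phosphatase Cdc25b 0.11 (edgeR adjusted p = 0.397 to 0.519). Other cyclins and kinases had a median of -0.017 over 26 tested, led by the transcription elongation kinase Cdk9, with a log2 change of 0.20 (edgeR adjusted p = 0.348). The next by p, Cdk19, Ccnl1 and Cdk10, had log2 changes of -0.19, -0.18 and 0.15 (edgeR adjusted p = 0.527 to 0.561).

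**Figure D4:**
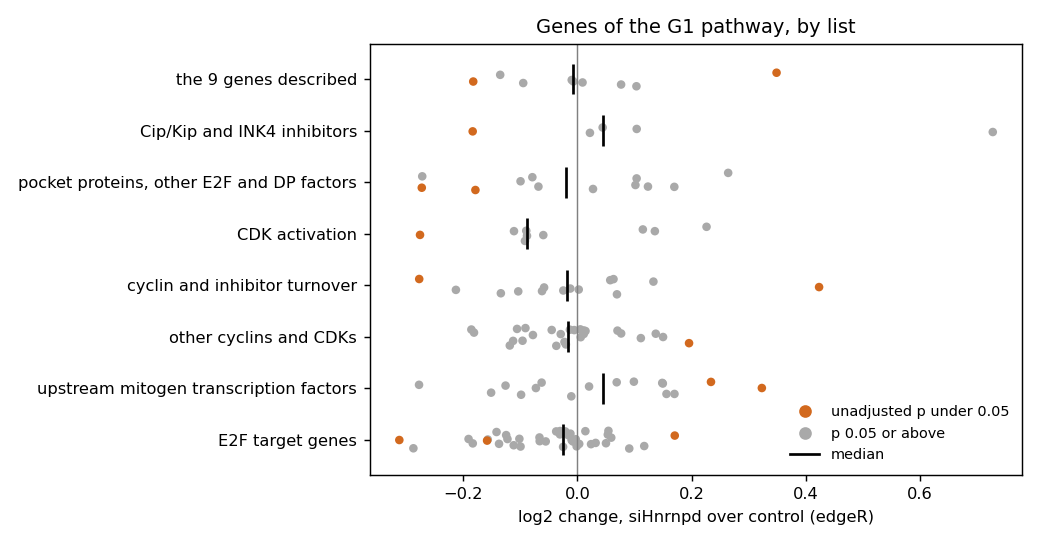
Log2 change, siHnrnpd over control, from edgeR for the 9 genes described and the 121 tested genes of 7 lists; each point is a gene, orange where the unadjusted p was under 0.05, and the black bar is the list's median. The list medians lie between -0.088 and 0.045, and 12 list genes are orange.

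Fez2, Mplkip and Tead1 followed Ccnd1 most closely over the 6 libraries, out of 8692 genes with a symbol and a mean of at least 5 CPM. Pearson's r of log2 CPM was 0.99 for each, and 115 genes had an r over 0.9. The 6 points share the 2 groups and the high siHnrnpd 3 library, so this is a description of these libraries. Fez2 had 124, 126 and 143 CPM in siHnrnpd 1 to 3, against 112, 113 and 116 CPM in controls 1 to 3, and its log2 change of 0.20 did not pass (edgeR adjusted p = 0.362). Mplkip and Tead1 had log2 changes of 0.16 and 0.29 (edgeR adjusted p = 0.519 and 0.443).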

How the data were processed

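RNA of 3 siHnrnpd and 3 control libraries was read as 150 nt paired ends, per the labels' protocols. The authors aligned the reads with TopHat2 and named the build mRatBN7.2, per the submitters' processing notes; for the counter, its strand setting and the annotation nothing is recorded in the sources used here, so a gene's reads may include those of an overlapping or antisense neighbour. One deposited table gives raw counts per gene and the other FPKM values computed by the authors. All 6 columns of each were matched to samples by siRNA name and replicate number. The main test was the quasi-likelihood test of edgeR 4.0.16 (R 4.3.3) with TMM scaling, filterByExpr, no term besides group, and Benjamini-Hochberg adjustment over 12268 genes; a gene was called at an adjusted p under 0.05. For CPM, library sizes were TMM-scaled. The 95% intervals come from the same fit and are not adjusted for the number of genes. Log2 CPM used a prior count of 2. Each test was first tried on simulated data. No pair among the 15 library pairs agreed within sampling noise. The pairs did not follow the siRNA groups throughout. By chi-square per degree of freedom, siHnrnpd 1 was closest to control 3 (20.5) and siHnrnpd 2 to control 2 (14.8). The pair siHnrnpd 1 and 2 had 24.5. In contrast, siHnrnpd 3 was closest to siHnrnpd 2 (28.6), and each control library to another control library.

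Alternatives were DESeq2 1.42.0, limma 3.58.1 with voom or on log2(FPKM + 1) and log2(FPKM + 0.1), 2 other scalings, 2 other filters, the replicate number as a block and leaving out each library. Named genes are all members, up to 4 of each list with the smallest p, and the 3 most correlated with Ccnd1. Myc, Mki67, Pcna and the marker genes were added. The members and lists were chosen with earlier results of these data known. Of 129 listed genes, 123 matched by symbol. Promoter sequences are from RefSeq, build GRCr8.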

Additional observations from a re-analysis of the deposited data

How the results depend on the processing

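None of the 9 genes was called under any of the 16 alternatives. Ccnd1, Ccnd3, Ccne1, Cdk4 and Cdk6 had the same sign under all of them, Cdk6 with log2 changes down to 0.00076 (without control 1), Ccnd1 with log2 changes of 0.20 to 0.42 and adjusted p of 0.0791 to 0.846, and Ccne1 with -0.21 to -0.16. Genes near 0 changed sign: under upper-quartile scaling Ccne2 was 0.0017 and Cdk2 0.0048, and they were 0.0045 and 0.0088 on log2(FPKM + 1) with or without a minimum, and 0.0048 and 0.0090 on log2(FPKM + 0.1). With 1 library left out, Ccne2 ran from -0.12 to 0.12, Cdk2 from -0.045 to 0.019, Cdkn1b from -0.22 to 0.0087 and E2f1 from -0.049 to 0.058, and 1 to 3 of the 9 genes had an unadjusted p under 0.05. Leaving out siHnrnpd 3 or control 2 each gave 1 such gene.

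Over all genes edgeR called 10. The count was 162 with DESeq2, 147 with no filter on low counts, 5 on log2(FPKM + 0.1), 6 with upper-quartile scaling, while 0 were called on log2(FPKM + 1) with or without a minimum, where 1157 and 1604 passed an unadjusted 0.05. It ran from 0 to 14 with 1 library left out, with 0 called without control 1, control 2 or control 3 (964, 724 and 1919 genes at an unadjusted p under 0.05), and 1 without siHnrnpd 1. The causes were not tested. With the replicate number as a block, edgeR called 0 genes, with 1062 at an unadjusted p under 0.05, and Ccnd1 had a log2 change of 0.34 (adjusted p = 0.368). Deviations of same-numbered libraries correlated at -0.26, 0.14 and 0.10, so the numbers were not taken to pair the libraries, and siHnrnpd 1 correlated best with control 3. With 1 library left out, the difference in share, siHnrnpd minus control, ran from 5.46 to 9.39 percentage points for Ccnd1, from -4.26 to -0.92 for Ccne1 and from -0.042 to 0.090 for Cdk4, the last with a change of sign without siHnrnpd 2.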

Other observations

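The order of the members depends on the gene length behind the FPKM values. Dividing CPM, here on unscaled library totals, by FPKM approximates the length in kilobases behind the authors' values. It gave 5.18 to 5.31 for E2f1 and 4.45 to 4.56 for Ccnd1, against 1.05 to 1.07 for Cdk4, over the 6 libraries. A length is the same in every library, so the authors' library totals differed from those used here, and these lengths are approximate. E2f1 ranks sixth among the 9 genes by mean FPKM in siHnrnpd and seventh in control libraries, although its TMM-scaled mean of 123 CPM in siHnrnpd and 122 CPM in control libraries exceeds that of Cdk2, at 85.6 and 86.0 CPM. The annotation behind these lengths was not used here.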
